A study of Homo sapiens with 6 samples.

Results

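The 38 genes described here encode the enzymes of glycolysis, the carriers of glucose and lactate, regulators of glycolytic flux, and targets and subunits of the hypoxia-inducible factor (HIF). They were taken by gene symbol from a list of glycolysis, lactate transport and hypoxia response genes. The rule uses no measured value, but the list was drawn up with earlier results of these data known. Of the 19977 genes in the count files, 38 of 38 listed symbols had a row, and all 38 passed the filter of at least 10 counts over the 6 libraries. By role they comprised 17 glycolytic enzymes, 4 glucose and lactate transporters, 4 regulators of glycolytic flux, 11 non-glycolytic HIF targets and 2 HIF alpha subunits.

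RNA came from NCRM-1, an induced pluripotent stem cell (iPSC) line of human origin, derived by episomal reprogramming of CD34+ cord blood and grown as aggregates in vertical wheel bioreactors, vessels that keep the aggregates in suspension. After 4 days, bulk RNA was sequenced from 3 samples grown in E8, a defined stem cell medium, that held polyethylene glycol at 10 mg/ml and heparin sodium salt at 0.1 µg/ml (called PEG and HS), and from 3 samples grown in E8 alone (E8 control). In both media 50% of the volume was replaced on day 2. All samples come from 1 cell line, and the treatment text of the labels describes PEG and heparin for all 6 samples, so the treatment entry of each sample was followed. The labels read as 1 bioreactor for each medium. Vessel and medium therefore cannot be told apart, and the p-values measure the spread between samples that may come from 1 culture.

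Each library held 26991279 to 36185138 counts on genes, of which the 38 genes took 1.29% to 1.34%. Mitochondrial genes took 4.54% to 5.16% of counts, lowest in PEG and HS replicate 3. The pluripotency markers POU5F1, NANOG, SOX2, LIN28A, DNMT3B, L1TD1, TDGF1 and PODXL summed to 8875 to 9131 CPM (counts scaled to a common library size) in PEG and HS and 9159 to 9336 CPM in E8 control, with 3 of 8 higher and 3 of 8 lower in PEG and HS. The sums hide opposite changes, of 46.6% in NANOG, 28.5% in L1TD1 and 17.5% in POU5F1, against -33.6% in SOX2, -24.9% in PODXL and -18.8% in LIN28A. Of all genes tested, 12.2% were higher and 13.1% lower. Of the markers of other lineages, trophectoderm had 3 of 4 tested genes lower, with sums of 4.30 to 4.76 CPM against 13.1 to 13.7 CPM and CDX2 and HAND1 at 0 in some libraries. None of 5 mesoderm and none of 3 tested endoderm markers passed the test, with sums of 5.02 to 6.23 against 5.69 to 6.49 CPM and 2.90 to 2.94 against 3.52 to 4.26 CPM, and SOX17 and GATA4 were at 0 in some libraries.

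Glycolysis splits glucose to pyruvate in the cytosol, and lactate dehydrogenase converts pyruvate to lactate, which leaves the cell through monocarboxylate carriers. Pluripotent stem cells are known for relying on this route also when oxygen is present. HIF is a pair of an alpha and a beta subunit that binds DNA and raises transcription of glycolytic and other genes. Prolyl hydroxylases mark the alpha subunit for breakdown when oxygen is present, so that its activity is set largely at the protein level, which RNA sequencing does not measure.

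In PEG and HS, 10 of the 38 genes were higher and 8 were lower than in E8 control, and 20 did not pass the test (edgeR's quasi-likelihood test, adjusted p under 0.05 after Benjamini-Hochberg adjustment over the 16505 genes tested). Across all genes tested 25.3% passed, 12.2% higher and 13.1% lower. The share among the 38 was 47.4%. These genes were counted deeply, and among genes of at least 10 CPM on average the background was 32.4%, against 53.1% (17 of 32) of the members at that level. This cut does not match depth above 10 CPM, and 19 of the 38 members exceeded 100 CPM in E8 control. Whether the remaining excess goes with depth was not tested. The changes were small and went both ways. The median log2 fold change, PEG and HS minus E8 control, was 0.01 over the 38 genes and 0.00 over all genes, and the called genes differed by 1.07-fold to 1.74-fold, with 3 of 18 past 1.3-fold. Those 3, DDIT4, EGLN3 and ENO2, were all lower in PEG and HS. Of the 20 genes not called, 13 had a 95% interval within 0.2 of no change on the log2 scale. In 12 of the 38 genes all PEG and HS libraries lay above all E8 control libraries and in 8 below them, while 19.5% and 19.8% of all genes tested, 39.3% together, were separated in this way.

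**Figure D1:**
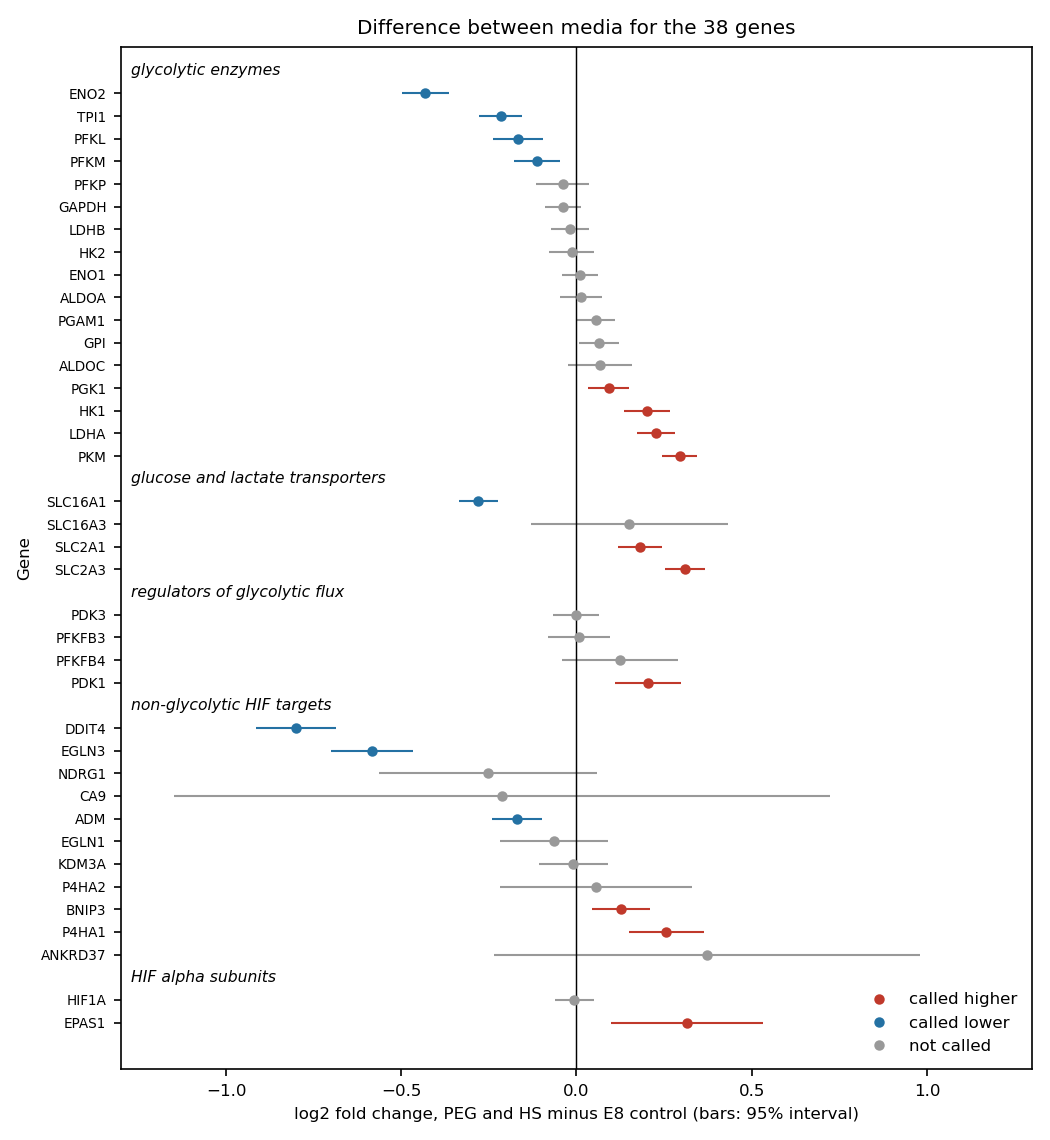
Log2 fold change (x axis, PEG and HS minus E8 control) of each of the 38 genes, grouped by role, with its 95% interval as a bar. Red points are called higher, blue called lower and grey not called. DDIT4 at -0.80, EGLN3 at -0.58 and ENO2 at -0.43 stand farthest to the left, and no called gene lies beyond 0.32 to the right.

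The core of the sequence that HIF binds is read as ACGTG or GCGTG, and 35 of the 38 genes had a promoter in RefSeq's table (GRCh38.p14). SLC2A3, SLC16A1 and NDRG1 were not among them. In the 250 bases before the start site, on either strand, 23 of 35 (65.7%) held at least 1 of these words, against 50.7% of 15321 promoters of genes in the files. For ACGTG alone the shares were 42.9% and 20.8%, and for GCGTG alone 40.0% and 39.4%. The words were present in 5 of 9 genes called higher, 4 of 7 called lower and 14 of 19 not called. The palindrome CACGTG, which contains ACGTG on both strands and so counts as 2 overlapping matches, was found in 14.3% of members and 7.85% of all. Such a match describes letters and is not a measured binding site.

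The promoters of 3 genes called lower and 3 called higher are shown because they are the ones with the largest changes among those in the table whose window held at most 10 bases of annotated protein-coding exon. Each is written 5′ to 3′ along the gene, in lower case with the matches to ACGTG or GCGTG (either strand) in capitals. DDIT4 has 3 matches, ADM and EPAS1 1 each, LDHA 5 counted on both strands, and EGLN3 and PDK1 0.
DDIT4 (chr10:72273674-72273923, plus strand): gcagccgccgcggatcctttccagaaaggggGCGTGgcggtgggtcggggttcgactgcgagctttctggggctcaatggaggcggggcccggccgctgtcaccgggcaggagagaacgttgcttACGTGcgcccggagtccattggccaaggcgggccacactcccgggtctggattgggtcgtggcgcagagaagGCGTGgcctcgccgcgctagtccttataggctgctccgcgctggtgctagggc
EGLN3 (chr14:33951075-33951324, minus strand): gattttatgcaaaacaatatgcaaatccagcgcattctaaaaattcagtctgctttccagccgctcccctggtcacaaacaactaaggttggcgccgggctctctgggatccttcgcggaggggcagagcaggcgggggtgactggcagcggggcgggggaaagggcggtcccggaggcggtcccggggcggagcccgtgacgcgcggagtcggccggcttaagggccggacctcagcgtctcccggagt
ADM (chr11:10304823-10305072, plus strand): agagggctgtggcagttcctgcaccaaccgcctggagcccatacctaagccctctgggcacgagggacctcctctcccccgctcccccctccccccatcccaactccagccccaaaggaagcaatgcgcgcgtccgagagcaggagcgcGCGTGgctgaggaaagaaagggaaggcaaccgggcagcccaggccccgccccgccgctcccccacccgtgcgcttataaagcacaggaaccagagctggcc
LDHA (chr11:18394313-18394562, plus strand): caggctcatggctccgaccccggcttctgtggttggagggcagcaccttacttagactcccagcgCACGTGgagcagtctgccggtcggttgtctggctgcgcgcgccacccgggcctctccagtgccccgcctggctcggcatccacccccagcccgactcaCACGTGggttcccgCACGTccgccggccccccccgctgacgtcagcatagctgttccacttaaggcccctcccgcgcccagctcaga
PDK1 (chr2:172555123-172555372, plus strand): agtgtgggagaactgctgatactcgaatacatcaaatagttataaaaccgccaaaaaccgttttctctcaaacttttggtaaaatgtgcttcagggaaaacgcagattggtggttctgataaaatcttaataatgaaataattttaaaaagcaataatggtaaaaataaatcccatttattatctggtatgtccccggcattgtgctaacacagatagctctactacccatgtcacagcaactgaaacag
EPAS1 (chr2:46297157-46297406, plus strand): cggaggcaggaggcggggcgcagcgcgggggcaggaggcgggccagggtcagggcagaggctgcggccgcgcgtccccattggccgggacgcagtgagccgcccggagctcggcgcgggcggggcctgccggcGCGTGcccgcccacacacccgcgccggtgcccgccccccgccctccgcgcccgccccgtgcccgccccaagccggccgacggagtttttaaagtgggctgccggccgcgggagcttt
In DDIT4 the matches began 219, 125 and 53 bases before the start site. In LDHA they lay at 185 to 180, 87 to 82 and 73 to 69 bases before it, the first pair of spans being CACGTG. DDIT4, with the largest decrease, and LDHA, which was higher, carried several matches, while EGLN3, with the second largest decrease, carried none in its window. The EGLN3 and EPAS1 windows lie inside the annotated spans of these genes, so sequence before the outer start of each was not covered. The PDK1 window ends at the outer annotated start of its gene, so sequence before any start further in was not covered. Its GC share was 35.6%, against 64.0% to 80.8% in the other windows shown. Sequence outside the windows was not searched. Whether matches go with the direction of change was not tested.

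Of the 17 glycolytic enzymes, 4 were higher in PEG and HS (HK1, PGK1, PKM and LDHA), 4 were lower (PFKL, PFKM, TPI1 and ENO2) and 9 did not pass the test. The share called was 47.1%, against 25.3% of all genes tested and 32.4% of those of at least 10 CPM on average. The median log2 fold change of the enzymes was 0.01. Summed over the list, the level was 11110 ± 162 CPM with PEG and HS, against 11040 ± 194 CPM in E8 control (SD, n = 3), and the libraries of the media overlapped. GAPDH alone made up 33.6% of that sum in E8 control.

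The first steps turn glucose into fructose-6-phosphate. HK1, a hexokinase that phosphorylates glucose, was measured at 55.2, 57.7 and 59.1 CPM per kilobase of transcript with PEG and HS, against 48.8, 50.5 and 50.3 in E8 control, with means of 207 and 179.6 CPM. No library of one medium reached into the range of the other, and the log2 fold change was 0.20 (SE 0.03, edgeR adjusted p = 1.73e-04). HK2, the hexokinase that is induced in many tumours, averaged 138 CPM and 139 CPM and did not pass the test. GPI, which turns glucose-6-phosphate into fructose-6-phosphate, averaged 345 ± 8.94 CPM and 330.0 ± 1.58 CPM (SD, n = 3). Its libraries did not overlap between media, but its adjusted p was 0.0937 by edgeR.

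Phosphofructokinase, the main control point, is built from the subunits PFKL, PFKM and PFKP. PFKL, the liver type, was at 117, 120.0 and 119.9 CPM with PEG and HS, against 129, 139.9 and 132 CPM in E8 control. PFKM, the muscle type, was at 93.5, 97.0 and 95.4 CPM against 101, 105 and 104 CPM. Both were lower in each PEG and HS library than in any E8 control library, with log2 fold changes of -0.17 (edgeR adjusted p = 0.00186) and -0.11 (edgeR adjusted p = 0.014). PFKM lost the call without PEG and HS replicate 1 or E8 control replicate 2. PFKP, the platelet type, did not pass the test, at 77.7 against 79.8 CPM.

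In the middle of the pathway TPI1, which interconverts the 3-carbon products of aldolase, was at 529, 547 and 558 CPM with PEG and HS, against 623, 652 and 623 CPM in E8 control. The groups were well apart, with a log2 fold change of -0.22 (SE 0.03, edgeR adjusted p = 4.28e-05). The aldolases ALDOA (666 against 660.4 CPM) and ALDOC (39.6 against 37.8 CPM) did not pass the test. GAPDH, the dehydrogenase that follows TPI1 and the most counted of the 38 genes, was at 3568, 3590.1 and 3682 CPM with PEG and HS, against 3707, 3784 and 3638 CPM in E8 control. These ranges overlapped, and the 95% interval of the log2 fold change ran from -0.09 to 0.01.

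PGK1, the first ATP-forming enzyme, was at 332, 341 and 345 CPM with PEG and HS, against 311, 325 and 318 CPM in E8 control. The difference was the smallest called, at a log2 fold change of 0.09 (edgeR adjusted p = 0.0218), and the call was lost without PEG and HS replicate 2 or 3 or E8 control replicate 1 or 3. PGAM1, a phosphoglycerate mutase, averaged 767 against 738 CPM. Its libraries did not overlap, yet it did not pass the test (edgeR adjusted p = 0.145).

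Of the enolases, ENO2 was lower and ENO1 did not pass the test. ENO1, the enolase of most cells and the second most counted member, was at 1678, 1721 and 1721 CPM with PEG and HS, against 1707, 1716 and 1661 CPM in E8 control, which overlapped, with a 95% interval from -0.04 to 0.06 for the log2 fold change. ENO2 (ENSG00000111674, GRCh38, chromosome 12, 6913745 to 6923698), the enolase best known from neurons, was at 96.9, 102 and 98.9 CPM with PEG and HS, against 131, 137 and 132 CPM in E8 control. All PEG and HS libraries lay below all E8 control libraries, with a log2 fold change of -0.43 (SE 0.03, edgeR adjusted p = 6.91e-08). The neural ectoderm markers SOX1, PAX6, NES, HES5 and ZIC1 moved the same way, 5 of 5 lower, with sums of 537 to 573 CPM with PEG and HS, against 642 to 669 CPM in E8 control, nearly all of it NES. None of the 5 was at 0 in any library. In bulk RNA, fewer cells of a type and less RNA per cell cannot be told apart, and the part of these markers in the ENO2 result was not tested.

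At the end of the pathway PKM, the pyruvate kinase gene, was at 934, 949 and 944 CPM with PEG and HS, against 771, 775 and 759 CPM in E8 control. It was the largest rise among the enzymes (log2 fold change 0.29, SE 0.02, edgeR adjusted p = 1.94e-07). Gene counts do not separate its M1 and M2 splice forms. LDHA, the lactate dehydrogenase subunit that is a classic HIF target, was at 304, 299.6 and 309 CPM with PEG and HS, against 258, 263 and 258 CPM in E8 control. The groups did not overlap, and the log2 fold change was 0.23 (SE 0.03, edgeR adjusted p = 9.37e-06). LDHB, the other subunit and the third most counted member, was at 1089.9, 1088 and 1128 CPM and 1102, 1140.3 and 1107 CPM, which overlapped, with a 95% interval from -0.07 to 0.04.

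**Figure D2:**
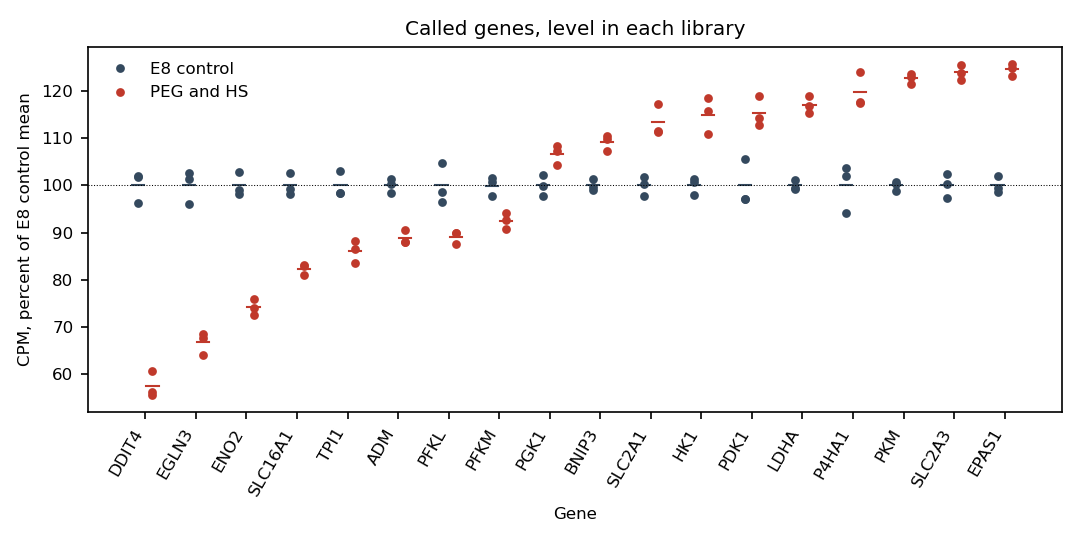
Level of each of the 18 called genes in each library (y axis, CPM as percent of the E8 control mean of that gene), ordered by log2 fold change. Points are libraries and short lines the mean of 3 libraries, red for PEG and HS and dark grey for E8 control. DDIT4, EGLN3 and ENO2 at the left sit farthest below 100 percent in PEG and HS, and the media do not overlap in any of these genes.

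The carriers of glucose rose and the main carrier of lactate fell. SLC2A3 (ENSG00000059804, GRCh38, chromosome 12, 7919230 to 8019007), the high-affinity glucose transporter GLUT3, was at 642, 650.5 and 659 CPM with PEG and HS, against 537, 512 and 526 CPM in E8 control. The groups were clearly apart, with a log2 fold change of 0.31 (SE 0.03, edgeR adjusted p = 3.72e-07). SLC2A1, the widespread glucose transporter GLUT1, averaged 241 ± 7.25 CPM and 213 ± 4.27 CPM (SD, n = 3), a log2 fold change of 0.18 (edgeR adjusted p = 3.09e-04).

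SLC16A1, the monocarboxylate carrier MCT1, went against the other called carriers. It was at 498, 487 and 499.6 CPM with PEG and HS, against 589, 596 and 617 CPM in E8 control, with no overlap and a log2 fold change of -0.28 (SE 0.03, edgeR adjusted p = 1.19e-06). SLC16A3, the lactate exporter MCT4 that HIF induces, was low, at 3.73 ± 0.44 CPM against 3.38 ± 0.26 CPM (SD, n = 3), and did not pass the test. Its 95% interval from -0.13 to 0.43 leaves a change of the size seen in SLC2A3 undetectable at this depth.

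Of the 4 regulators of flux only PDK1 passed the test, a share of 25%, near the 25.3% of all genes tested. PDK1, a kinase that holds pyruvate back from the mitochondria by inhibiting pyruvate dehydrogenase, averaged 47.1 ± 1.32 CPM with PEG and HS, against 40.8 ± 2.0 CPM in E8 control (SD, n = 3). This was a log2 fold change of 0.20 (SE 0.04, edgeR adjusted p = 0.00302). Its relative PDK3 averaged 94.9 against 95.05 CPM, with a 95% interval from -0.07 to 0.07. PFKFB3 and PFKFB4, which make the activator of phosphofructokinase, averaged 37.3 against 37.1 CPM and 13.6 against 12.4 CPM and did not pass the test.

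Outside glycolysis, 2 of 11 HIF targets were higher in PEG and HS (BNIP3 and P4HA1), 3 were lower (DDIT4, EGLN3 and ADM) and 6 did not pass the test. The share called was 45.5%, against 25.3% of all genes tested, which is not matched for depth. Summed over the 11 genes, the level was 244 ± 0.82 CPM with PEG and HS, against 266 ± 7.04 CPM in E8 control (SD, n = 3), with all PEG and HS libraries below all E8 control libraries. DDIT4 and EGLN3 had the largest log2 fold changes of the list. Without these 2 genes, removed after their values were seen, the other 9 summed to 209.8 to 210.6 CPM with PEG and HS, against 205 to 217 CPM in E8 control, which overlapped. Within those 9, ADM was lower, at 62.8 against 70.7 CPM, while P4HA1 (31.9 against 26.7 CPM) and BNIP3 (42.1 against 38.6 CPM) were higher. Over all 11 genes the median log2 fold change was -0.06, against 0.01 for the enzymes, a difference in medians of -0.07. Without E8 control replicate 3 the HIF targets' median was 0.01 and this difference 0.02, so it turned sign with 1 library. In both fits the median of the 11 HIF targets is the value of a single gene, EGLN1. EGLN1 did not pass the test (SE 0.07, edgeR adjusted p = 0.572). The difference between the lists was not tested.

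DDIT4 (ENSG00000168209, GRCh38, chromosome 10, 72273919 to 72276036) encodes an inhibitor of the growth kinase complex mTORC1 that many stresses induce. It was at 17.0, 18.6 and 17.2 CPM with PEG and HS, against 29.5, 31.1 and 31.2 CPM in E8 control. This was the largest change among the 38 genes, with a log2 fold change of -0.80 (95% interval -0.92 to -0.69, edgeR adjusted p = 2.25e-08).

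EGLN3 (ENSG00000129521, GRCh38, chromosome 14, 33924227 to 34462774) is one of the prolyl hydroxylases that act on HIF alpha and is itself induced by HIF. It was at 16.8, 17.0 and 15.9 CPM with PEG and HS, against 23.8, 25.4 and 25.1 CPM in E8 control, again with no overlap. The log2 fold change was -0.58 (95% interval -0.70 to -0.47, edgeR adjusted p = 1.08e-06). EGLN1, the main oxygen-sensing hydroxylase, averaged 14.99 against 15.6 CPM and did not pass the test. ADM, which encodes the vasodilator peptide adrenomedullin, averaged 62.8 ± 1.02 CPM against 70.7 ± 1.04 CPM (SD, n = 3) and fell by 0.17 on the log2 scale (edgeR adjusted p = 0.00129).

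P4HA1, a subunit of the hydroxylase that matures collagen, went the other way, at 33.1, 31.4 and 31.3 CPM with PEG and HS, against 25.1, 27.2 and 27.7 CPM in E8 control. The log2 fold change was 0.26 (SE 0.05, edgeR adjusted p = 0.00142). BNIP3, which directs removal of mitochondria, was at 41.4, 42.4 and 42.6 CPM and 38.4, 39.1 and 38.2 CPM, a log2 fold change of 0.13 (edgeR adjusted p = 0.0263). The BNIP3 call was lost by DESeq2 and without PEG and HS replicate 2 or 3 or E8 control replicate 1 or 3.

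The other HIF targets did not pass the test. KDM3A, a histone demethylase, averaged 49.7 against 49.9 CPM, and P4HA2, a relative of P4HA1, 4.76 against 4.53 CPM. NDRG1, a stress-response gene, averaged 2.85 against 3.37 CPM. CA9, the carbonic anhydrase widely used as a marker of hypoxia, was at 0.24, 0.32 and 0.27 CPM and 0.33, 0.40 and 0.22 CPM, and ANKRD37, another strongly HIF-induced gene in many cells, at 0.89, 0.92 and 1.15 CPM and 0.96, 0.80 and 0.55 CPM. With so few counts the 95% interval of CA9 ran from -1.15 to 0.72, so that changes of the size seen in DDIT4 were not detectable there.

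HIF1A, the main HIF alpha subunit, averaged 268 ± 4.43 CPM with PEG and HS, against 269 ± 3.08 CPM in E8 control (SD, n = 3), with a 95% interval from -0.06 to 0.05 for the log2 fold change. EPAS1 (ENSG00000116016, GRCh38, chromosome 2, 46293667 to 46386697), the second alpha subunit, was at 4.95, 5.06 and 5.02 CPM and 3.97, 4.00 and 4.10 CPM. The libraries did not overlap and the log2 fold change was 0.32 (SE 0.10, edgeR adjusted p = 0.0341), but the call was lost with any of the 6 libraries left out and by DESeq2.

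**Figure D3:**
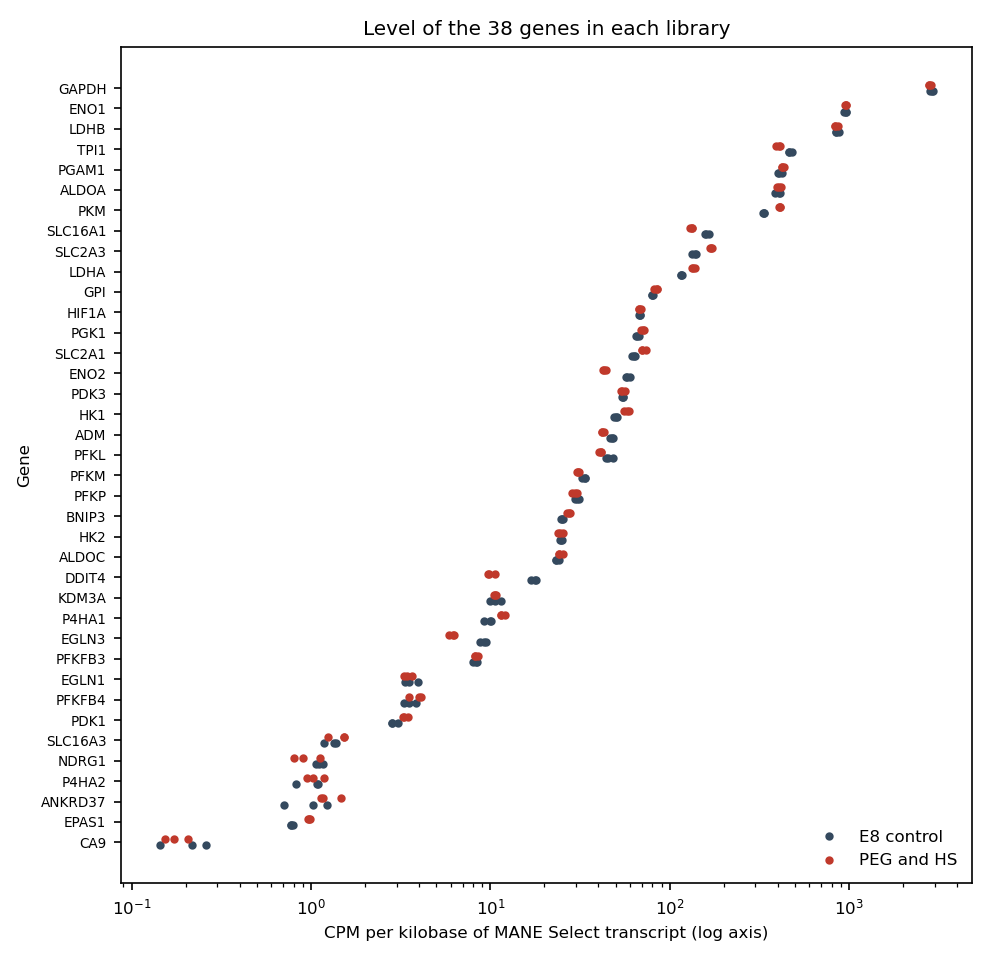
Level of each gene in each library (x axis, CPM per kilobase of the MANE Select transcript, log axis), ordered by the E8 control mean. Red points are PEG and HS and dark grey points E8 control libraries. GAPDH lies at the top near 2887 in E8 control and CA9 at the bottom near 0.21, and for most genes the 6 points nearly coincide.

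Levels can be compared between genes only per length, here as CPM per kilobase of MANE Select transcript. On this scale GAPDH led with 2812 in PEG and HS and 2887 in E8 control, followed by ENO1 (958 and 952) and LDHB (846 and 857). HIF1A stood at 67.8 and 68.1, while EPAS1 stood at 0.97 and 0.78.

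Within pairs of related genes, the share of 1 member per length describes which form prevailed. LDHA made up 13.8% of LDHA and LDHB in PEG and HS and 11.9% in E8 control, and ENO2 4.31% and 5.77% of the enolases. HK1 made up 70.0% and 66.8% of the hexokinases, and SLC2A3 70.5% and 68.6% of the glucose transporters. In none of these 4 did the libraries overlap. EGLN3 had 63.9% and 71.7% of the pair with EGLN1, and PFKL 40.4% and 41.9% of the phosphofructokinase trio, again without overlap. The shares of ALDOC and P4HA2 overlapped between media. LDHB, HIF1A and PDK3 remained the predominant forms of their pairs in both media. These shares were not tested apart from the genes themselves.

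**Figure D4:**
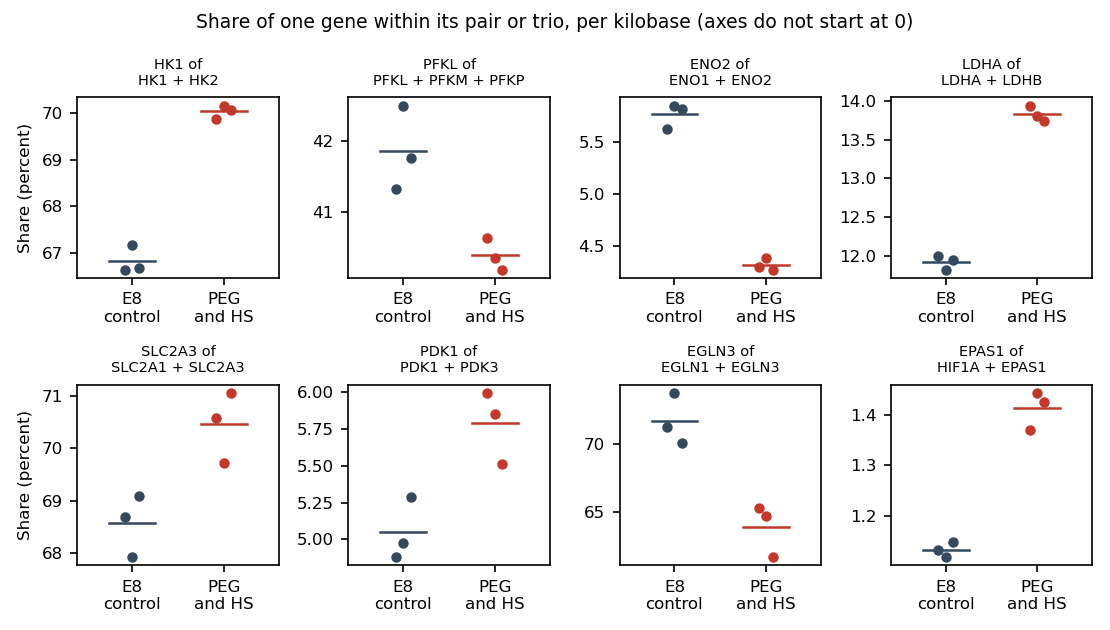
Share of 1 gene within its pair or trio of related genes (y axis, percent of the summed CPM per kilobase; axes do not start at 0), with 1 point per library and the mean as a line, for E8 control and PEG and HS. LDHA rises from 11.9 to 13.8 percent, EGLN3 falls from 71.7 to 63.9 percent, and in each panel the media do not overlap.

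Other genes of these pathways were read from lists chosen by role. Of 88 tested genes of 92 listed, 15 were higher and 16 were lower in PEG and HS, 35.2% against the background of 25.3%. Among those of at least 10 CPM on average, 25 of 65 (38.5%) passed, near the background of 32.4% for genes at that level. Of 28 further HIF targets, 9 were higher and 5 lower, 50% against the 25.3% of all genes tested, which is not matched for depth. These too split in both directions. Their median log2 fold change was 0.06, against -0.06 for the 11 HIF targets among the members. AK4, a mitochondrial adenylate kinase, was the largest rise, at 397 against 235 CPM (log2 fold change 0.76, edgeR adjusted p = 3.52e-11). TMEM45A and ERO1A were higher by 0.33 and 0.20 on the log2 scale, and CA12 and ZNF395 had log2 fold changes of -0.58 and -0.24.

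Among 13 regulators of HIF, 3 were lower and the other 10 did not pass the test, so that 23.1% were called, near the 25.3% of all genes tested. CITED2, which competes with HIF for its coactivators and is itself a HIF target, was at 40.7 against 98.8 CPM (log2 fold change -1.28, edgeR adjusted p = 1.39e-12). ARNT2, a HIF beta subunit enriched in neural tissue, was at 13.2 against 17.5 CPM (log2 fold change -0.41), and the coactivator CREBBP had a log2 fold change of -0.12.

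Of 18 genes of the pentose phosphate and glycogen pathways, 4 were higher and 3 lower. UGP2, which makes the glucose donor for glycogen, was at 313 against 469.6 CPM (log2 fold change -0.59), beside PGM1 at -0.21 and PYGB at -0.14. FBP1, PYGL and PGM2 were higher by 0.43, 0.23 and 0.20. Of 14 tested genes for pyruvate entry and lactate chaperones, SLC16A7 was higher (0.30) and PDK2 (-0.48), MPC2 (-0.19), DLD and BSG were lower. Of 15 tested other glycolytic isozymes, ADPGK was higher (0.18) and LDHD, a mitochondrial D-lactate dehydrogenase, was at 2.36 against 7.58 CPM (log2 fold change -1.68, edgeR adjusted p = 9.10e-08). The shares called in these lists were 38.9%, 35.7% and 13.3%, in the order given, against 25.3% of all genes tested.

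Some of the 38 genes share sequence with copies or overlap other genes, and how the counting treated such reads is not given in the sources used here. Of their 31-base words, EGLN1 shared 57.8%, PGAM1 47.3%, ALDOA 43.0%, LDHB 31.4%, SLC2A3 27.8%, GAPDH 24.7% and BNIP3 22.1% with other genes. EGLN1, PGAM1, ALDOA, LDHB and SLC2A3 had a copy in the files with at least 20% of their words. When the counts of these copies were added, none of the 5 changed its call, and SLC2A3, whose closest copy SLC2A14 was at 6.84 against 5.69 CPM, kept a log2 fold change of 0.31. The log2 fold change of EGLN1 moved from -0.06 to -0.13, still not called. Its copy was itself lower, at 1.23 against 2.04 CPM (log2 fold change -0.72, edgeR adjusted p = 0.0347). GAPDH and BNIP3 had no such copy in the files, so nothing was added to them. Genes on the opposite strand covered 40.4% of the exons of ANKRD37 (UFSP2) and 35.7% of those of CA9 (ARHGEF39), and although the library kit kept the strand of the RNA, whether the counting used it is not given in the sources used here.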

How the data were processed

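Bulk RNA of 6 NCRM-1 samples was analysed. Reads were trimmed (Trim Galore 0.6.7) and mapped to GRCh38 (STAR 2.6.1) in an nf-core pipeline, versions being those of the submitters' processing notes, and the authors deposited raw counts per gene for each library. The libraries were made with a stranded mRNA kit. The counting tool, its strand setting and the annotation release are not given in the sources used here. Symbols, coordinates and MANE lengths came from GENCODE 44. Genes with at least 10 counts in total were scaled with TMM (0.994 to 1.01) and tested with edgeR 4.0.16 in R 4.3.3 (glmQLFit, glmQLFTest, two-sided, no covariate), with Benjamini-Hochberg adjustment and a call at an adjusted p under 0.05. CPM are TMM-scaled. The biological coefficient of variation was 3.12%. DESeq2 1.42.0, limma-voom 3.58.1 and further scalings, filters and left-out libraries were alternatives, and adding the counts of copies, the sum without DDIT4 and EGLN3 and the counts among pathway genes of at least 10 CPM were chosen after seeing the data. On simulated counts for this comparison (16392 genes), edgeR recovered 63.5% of 1.2-fold, 88.2% of 1.5-fold and 95.7% of 2-fold changes, and 11.2% of its calls were false. Only 63, 68 and 69 well-counted genes were changed at these folds, a far smaller share than the 25.3% of genes called in the data. This false share lies above the level that a threshold of adjusted p under 0.05 is meant to hold. Calls reported here may thus be false more often than the threshold implies, and their error rate was not measured. The members, lists and tests were chosen with earlier results of these data known. Values in each library are given for called members with an absolute log2 fold change of at least 0.3, the 3 most counted members, and called members against their list's direction, with all called enzymes included because 4 were higher and 4 lower. CA9 and ANKRD37, also given by library, were added for their low counts after their values were seen. Of other lists, at most 3 called genes in each direction with at least 1 CPM are named, besides DLD and BSG, named after their values were seen, and 1 gene that this rule takes is not reported here. Libraries of 1 medium differed by more than sampling noise and were counted separately, which does not show that they came from separate cultures.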

Additional observations from a re-analysis of the deposited data

How the results depend on the processing

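Of the 38 genes, 14 of the 18 called kept the call with each library left out (BNIP3, EPAS1, PFKM and PGK1 did not), and none reversed under any of the 17 alternatives. Leaving out 1 library gave 7 to 9 members higher and 7 to 8 lower, 3 to 4 enzymes higher and 3 to 4 lower, 1 to 2 HIF targets higher, 0 HIF alpha subunits higher, a median of -0.008 to 0.017 over the members, -0.004 to 0.022 for the enzymes and -0.107 to 0.0116 for the HIF targets, a difference between the lists of -0.111 to 0.0160 (highest without E8 control replicate 3 for both), 1453 to 1751 of all genes higher and 1661 to 1938 lower, and 10 to 15 other pathway genes higher and 13 to 16 lower. Fewer samples reduce the calls by construction.

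By DESeq2, 1 HIF target and 0 HIF alpha subunits were higher. At an adjusted p under 0.01 these were 1 and 0, other pathway genes higher were 8, and all genes 1167 higher and 1434 lower. Tested against a 1.2-fold change (edgeR's glmTreat), 0 members were higher (2 at an unadjusted p under 0.05, and 10 by the test against no change) and 3 lower (DDIT4, EGLN3 and ENO2), among 215 higher and 653 lower of all genes. That left 0 enzymes higher and 1 lower, 0 transporters in either direction, 0 regulators, 0 HIF targets and 0 HIF alpha subunits higher, and 1 other pathway gene higher and 5 lower. With the counts of copies added, the HIF targets' median was -0.13 and the difference from the enzymes -0.14. That median is the value of EGLN1, a gene to which the counts of a copy were added. With library size alone GPI was also called. The replicate numbers did not pair the samples (correlation of deviations 0.023 to 0.046 for equal numbers), and with the replicate block 10 members were higher and 8 lower. Depth limits CA9, ANKRD37, SLC16A3, P4HA2 and NDRG1.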
